A study of Bos taurus with 106 samples.

Results

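Solute carriers are the membrane proteins named SLC, and 83 of the 8208 elements on a bovine cDNA array carried the symbol of one. An element is a cDNA spotted in 2 places, and a member was any element whose single gene symbol started with SLC and a digit, leaving out SLC10A1, SLC27A2 and SLC25A20. The 83 elements stood for 64 genes in 11 substrate classes, and 16 of the genes had more than 1 element, which are told apart here by the identifier of their cDNA. The largest classes were carriers of amino acids and peptides (15 elements) and of metal ions (15), followed by inorganic ions and pH (10), sugars (9), nucleosides and nucleotide sugars (9), mitochondrial metabolites (9), vitamins, choline and cofactors (7) and carboxylates (4). Fatty acid carriers (SLC27A1) and vesicular neurotransmitter carriers (SLC17A7) had 1 element each, and 3 elements (SLC66A3, SLC17A5 and SLC35E2B) were left in an unassigned class.

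Solute carriers move sugars, amino acids, nucleosides, vitamins, metals and ions across the plasma membrane and the membranes of organelles, some as facilitated carriers and others as exchangers or cotransporters driven by an ion gradient. The liver depends on them to exchange nutrients with portal blood, to release glucose, and to feed mitochondria, lysosomes and the Golgi with their substrates. Around calving the liver of a dairy cow is the main source of glucose for milk lactose, and it takes up propionate, lactate and amino acids for gluconeogenesis.

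The measurements were log2 ratios of liver RNA over a reference RNA mixed from tissues other than liver, taken on 106 arrays from 8 Holstein cows. All cows were fed a diet of 1.60 Mcal/kg through a dry period of 65 days, when 4 restricted cows were held to about 80% of the NRC energy requirement and 4 ad libitum cows reached about 120%. Liver was sampled 65, 30 and 14 days before calving (days -65, -30 and -14) and 1, 14, 28 and 49 days after it. There were 53 cow-days, each measured on 2 arrays with the dyes exchanged and counted as 1 sample: 7 cows on day -65, 6 on day 49 and 8 on every other day. The samples were whole liver tissue of intact cows, and the comparison of diets had no group fed at the requirement itself. A log2 ratio above 0 means more signal from liver than from the reference, relative to the median element of the array, so a fall is a fall against the rest of the elements. Ratios of different elements depend on the reference and are not ranked against each other.

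The array held 2 of the hepatocyte markers looked for, TF (transferrin) at a mean of 4.65 and APOA1 at 1.00, both above the reference. Both dye orientations of a cow-day were correlated after the dye effect of each element, from its median difference over all cow-days, was taken out. Over all elements this correlation averaged 0.841 to 0.881 on days -65, -30, 28 and 49, and 0.713 to 0.753 on days -14, 1 and 14. Over the solute carriers alone the median of that correlation was 0.937 on day -30 and 0.927 on day 28, against 0.822, 0.791 and 0.789 on days -14, 1 and 14. The lower agreement fell on the same 3 days on which most of the differences below were measured, and its part in them was not tested.

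Across the 7 days, 38 of the 83 elements, standing for 31 genes, differed at a limma adjusted p under 0.05, and 43.4% of all 8061 tested elements did so. Solute carriers were therefore called about as often as the array as a whole. The count was 22 with orientation agreement as a covariate and 24 without cow 7161. The 38 comprised 8 amino acid or peptide carriers, 7 sugar carriers, 6 nucleoside or nucleotide sugar carriers, 4 each of the inorganic ion, metal and mitochondrial classes, 2 vitamin carriers, SLC17A7 and 2 unassigned elements. None of the 4 carboxylate elements passed, and neither did SLC27A1, the fatty acid transport protein.

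Between day -30 and day -14, while the cows were dry, 12 solute carrier elements rose and 16 fell, together 28 elements of 25 genes. The background was 33.5% of all tested elements, 19.5% higher and 14% lower, and the share among solute carriers was 33.7%. The median difference was -0.04 over the solute carriers and 0.06 over all elements, and single differences ran from -0.95 to 1.77. Without centring of the arrays the median of all elements shifted by 0.48, and then 29 solute carriers rose and 0 fell, so the directions below hold relative to the array median. In bulk tissue, fewer cells of a type and less RNA per cell cannot be told apart. Marker levels moved over the same interval: the mean log2 ratio of the 2 hepatocyte elements lay between 2.82 and 3.21 in the cows on day -30 and between 2.16 and 3.05 on day -14. That of 7 stellate cell and fibroblast elements lay between -2.64 and -2.39 and then between -2.31 and -0.74, with 4 of the 7 rising and 0 falling. That of 8 sinusoidal endothelial elements lay between 1.34 and 1.91 and then between 0.91 and 1.65, with 1 rising and 3 falling. Of 9 macrophage elements 3 fell, 1 of 3 T and NK cell elements rose and neither of the 2 bile duct elements passed. The part of these shifts in the solute carrier results was not tested.

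**Figure D1:**
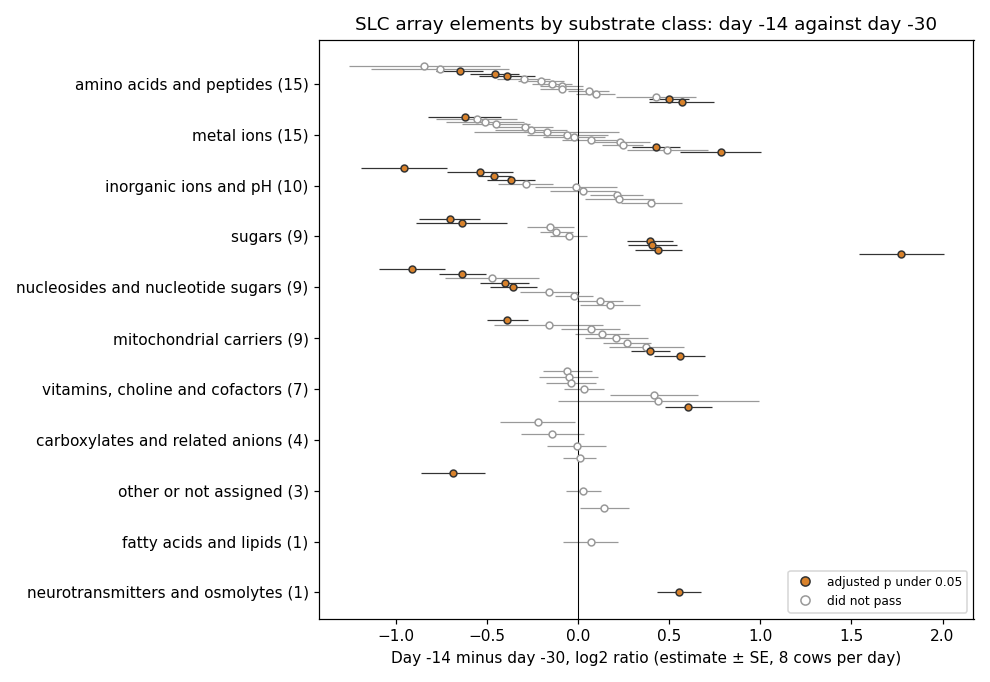
Difference between day -14 and day -30 (log2 ratio, estimate ± SE, 8 cows per day) for each of the 83 solute carrier elements, grouped by substrate class with the number of elements in brackets. Filled points passed an adjusted p of 0.05. The point farthest to the right is SLC2A3 (AW464247) at 1.77, and all 4 nucleoside or nucleotide sugar elements and all 4 inorganic ion elements that passed lay below 0. The former include SLC35E1, whose substrate is not established.

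Sugar carriers held the difference farthest from 0. Of 9 sugar elements 4 rose and 2 fell. The 4 that rose were both elements of SLC2A3, the glucose carrier best known from neurons, and both elements of SLC2A1, the glucose carrier of red cells and the blood-brain barrier. The SLC2A3 element AW464247 lay between -2.31 and -1.76 (median -1.91) in the 8 cows on day -30 and between -1.42 and 0.45 (median -0.12) on day -14. All 8 cows rose and the days did not overlap, which held for 1 of the 83 solute carriers and for 4.54% of all elements. It was called under every other setting tried. Its mean went from -1.98 ± 0.22 to -0.21 ± 0.60 (SD, n = 8 each), a difference of 1.77 ± 0.23 (SE) with an adjusted p of 3.16e-07, and it stayed at -0.32 ± 0.43 on day 1 and -0.69 ± 0.78 on day 14. The other SLC2A3 element, AW463170, rose in 7 of 8 cows by 0.41 ± 0.13 (SE), with an adjusted p of 0.0156. Its cows ranged from -3.16 to -2.47 on day -30 and from -3.09 to -2.08 on day -14, so the days overlapped, and the call was lost without cow 6886, 7045, 7105 or 7187. Both elements of this gene moved the same way, but by different amounts, and over 53 cow-days they correlated at r = 0.65.

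SLC2A1 rose in 7 of 8 cows on both of its elements. AW463536 went from a median of -1.05 (range -1.45 to -0.57) to one of -0.57 (range -0.89 to -0.11), a difference of 0.44 ± 0.13 (SE) with an adjusted p of 0.00753, although on the arrays with liver in Cy5 alone it was -0.12. AW462352 went from a median of -1.43 (range -1.68 to -1.27) to one of -0.997 (range -1.74 to -0.40), a difference of 0.40 ± 0.13 (SE) with an adjusted p of 0.0142. The days overlapped for both, and the calls were lost without cow 7187 and, for AW462352, also without cow 6886 or 7105.

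The 2 sugar elements that fell were those of SLC37A1 and SLC37A2, sugar phosphate exchangers of the endoplasmic reticulum. SLC37A1 lay between -0.28 and 0.39 (median 0.07) on day -30 and between -1.23 and -0.08 (median -0.46) on day -14, and it fell in 7 of 8 cows, a difference of -0.70 ± 0.17 (SE) with an adjusted p of 0.00131. SLC37A2 showed a spread on day -14 far wider than on day -30: from -2.49 to 0.87 against -0.40 to 0.33. Its difference of -0.64 ± 0.25 (SE) had an adjusted p of 0.0431, with 5 of 8 cows lower, and it lost the call when any of cows 6886, 6952, 7045, 7105, 7161 and 7187 was left out. The 3 elements of SLC37A3 differed by -0.15 to -0.05 and did not pass.

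Among amino acid and peptide carriers 2 elements rose and 3 fell of 15. SLC66A1, which exports cationic amino acids from lysosomes, rose in all 8 cows, from a range of 0.04 to 0.30 (median 0.16) to one of 0.26 to 1.02 (median 0.58). The difference of 0.50 ± 0.11 (SE) had an adjusted p of 0.000618, and the days overlapped only between 0.26 and 0.30. SLC7A4, a relative of the cationic amino acid transporters, rose by 0.57 ± 0.18 (SE, adjusted p = 0.0123) on its element BF040467, with 6 of 8 cows higher, a call that was lost without cow 7161. Its other element, BF041636, which had a value in 47 of 53 cow-days, gave -0.84 and did not pass (adjusted p = 0.11). SLC36A2, a proton-coupled carrier of small amino acids such as glycine and proline, fell in all 8 cows on element AW464855, from a median of 0.14 (range 0.11 to 0.36) to -0.39 (range -1.04 to 0.13). The difference was -0.65 ± 0.13 (SE) with an adjusted p of 0.000172, whereas its element BF039414 differed by -0.09 and did not pass. SLC15A4, a lysosomal histidine and peptide carrier, fell by 0.46 on the log2 scale on element AW465254 (adjusted p = 0.00747). SLC1A3, the glial glutamate transporter, fell by 0.39 (adjusted p = 0.0436), but differed in the other direction by 0.031 without centring and by 0.15 with scaled arrays, and lost its call without cow 6877, 6886, 7045, 7050, 7161 or 7187.

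All 4 inorganic ion and pH elements that passed had fallen, of 10. SLC4A11, a member of the bicarbonate transporter family studied mainly in the cornea, fell in all 8 cows, from a median of -0.10 (range -0.36 to 0.06) to -0.55 (range -1.004 to -0.30). The difference of -0.46 ± 0.09 (SE) had an adjusted p of 0.000151, and the days overlapped in the narrow band from -0.36 to -0.30. SLC4A9, another member of that family, lay between 0.10 and 0.47 on day -30 and between -2.61 and 0.64 on day -14, so single cows on day -14 were both above and far below every earlier value. Its difference of -0.95 ± 0.24 (SE) had an adjusted p of 0.0019, with 7 of 8 cows lower. SLC9A2, a sodium/proton exchanger, fell by 0.54 (adjusted p = 0.0187) but differed by 0.059 in the other direction with liver in Cy3 alone, and lost its call without cow 7045, 7050 or 7161. SLC26A2, a sulphate carrier, fell by 0.37 (adjusted p = 0.0294) but differed by 0.055 in the other direction without centring, and lost its call without cow 6952, 7050, 7105, 7161 or 7187.

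Nucleoside and nucleotide sugar carriers gave 4 falls and 0 rises among 9 elements. SLC35E1, whose substrate is not established, was counted in this class, whereas SLC35E2B was left unassigned. SLC35E1 fell in all 8 cows, from a median of -0.16 (range -0.51 to 0.22) to -0.78 (range -1.21 to -0.34), a difference of -0.64 ± 0.13 (SE) with an adjusted p of 0.000233. SLC29A3, the nucleoside carrier of lysosomes and other organelles, fell in 7 of 8 cows on element BF043384, from a median of 0.47 (range 0.31 to 0.66) to -0.45 (range -1.30 to 0.62), a difference of -0.91 ± 0.18 (SE) with an adjusted p of 0.00021. Its second element, BM361857, differed by 0.12 and did not pass. SLC35A3, which brings UDP-N-acetylglucosamine into the Golgi, fell by 0.40, in all 8 cows (adjusted p = 0.0196), yet differed by 0.019 in the other direction without centring and lost its call without cow 6952, 7045 or 7187. SLC35B2, the Golgi carrier of activated sulphate, fell by 0.35 (adjusted p = 0.0317), but differed in the other direction by 0.067 without centring and by 0.039 with liver in Cy3 alone, and lost its call without cow 6877, 7050, 7105, 7161 or 7187. SLC29A1, the nucleoside carrier of the plasma membrane, differed by -0.16 and 0.18 on its elements and did not pass.

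Among mitochondrial carriers 2 of 9 rose and 1 fell. SLC25A5, an ADP/ATP translocase, rose in all 8 cows, from a median of -2.13 (range -2.38 to -1.92) to -1.79 (range -2.05 to -1.43), a difference of 0.40 ± 0.11 (SE) with an adjusted p of 0.00424. Its mean went on to -1.37 ± 0.22 on day 1 and returned to -1.92 ± 0.15 on day 28 (SD, n = 8 each). SLC25A25, the ATP-magnesium/phosphate carrier, rose in 7 of 8 cows, from a median of 0.68 (range 0.27 to 1.00) to 1.19 (range 0.78 to 1.95), a difference of 0.56 ± 0.14 (SE, adjusted p = 0.00199). SLC25A17, the peroxisomal member of the family, fell by 0.39, in 7 of 8 cows (adjusted p = 0.00783), while without centring it differed by 0.034 in the other direction. SLC25A3, the phosphate carrier, was higher in all 8 cows by 0.38 ± 0.21 (SE) and did not pass (adjusted p = 0.156).

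In the metal ion class 2 of 15 elements rose and 1 fell, and the clearest case was a gene whose elements opposed each other. SLC39A8 imports zinc and manganese. Its element BF045137 fell in 7 of 8 cows, from a median of 0.30 (range -0.17 to 0.51) to -0.46 (range -1.14 to 0.18), a difference of -0.62 ± 0.20 (SE, adjusted p = 0.0154). Its element AW465746 rose in 6 of 8 cows, from a median of -1.19 (range -1.55 to -0.01) to -0.31 (range -0.95 to 0.76), a difference of 0.78 ± 0.22 (SE, adjusted p = 0.00607). Both calls passed in opposite directions, and over the 53 cow-days the elements correlated at r = -0.70, so no direction can be given for the gene. The first call was lost without cow 6886 or 7105 and the second without cow 7105. SLC39A9, a zinc carrier of the secretory pathway, rose by 0.43 (adjusted p = 0.0105), a call lost without cow 7187. SLC40A1, ferroportin, the iron exporter, which was chosen after its values were seen, lay between 2.68 and 3.94 on day -30 and between 3.01 and 4.53 on day -14, and its difference of 0.49 ± 0.22 (SE) did not pass (adjusted p = 0.0837).

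Of the remaining classes, SLC52A2, a riboflavin carrier, was the only vitamin element of 7 to pass, and rose in 7 of 8 cows, from a median of -0.09 (range -0.21 to 0.17) to 0.27 (range -0.01 to 1.34). The difference was 0.61 ± 0.13 (SE) with an adjusted p of 0.000473. On day -14 SLC52A2 was at 0.24, 0.9985, 1.13 and 1.34 in restricted cows and at -0.01, 0.15, 0.26 and 0.28 in ad libitum cows. Its means of days -30 and -14 did not overlap between diets, but no diet difference before calving passed. SLC17A7, a vesicular glutamate carrier of neurons, rose in 7 of 8 cows from a median of -1.11 (range -1.21 to -0.93) to -0.42 (range -1.29 to -0.18), a difference of 0.55 ± 0.12 (SE) with an adjusted p of 0.000548. SLC35E2B, of unassigned substrate, fell in all 8 cows from a median of 0.98 (range 0.74 to 1.25) to 0.27 (range -0.66 to 0.84), a difference of -0.69 ± 0.17 (SE) with an adjusted p of 0.00231. The 4 carboxylate elements (SLC16A11, SLC16A13 and SLC13A4) differed by -0.22 to 0.01.

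**Figure D2:**
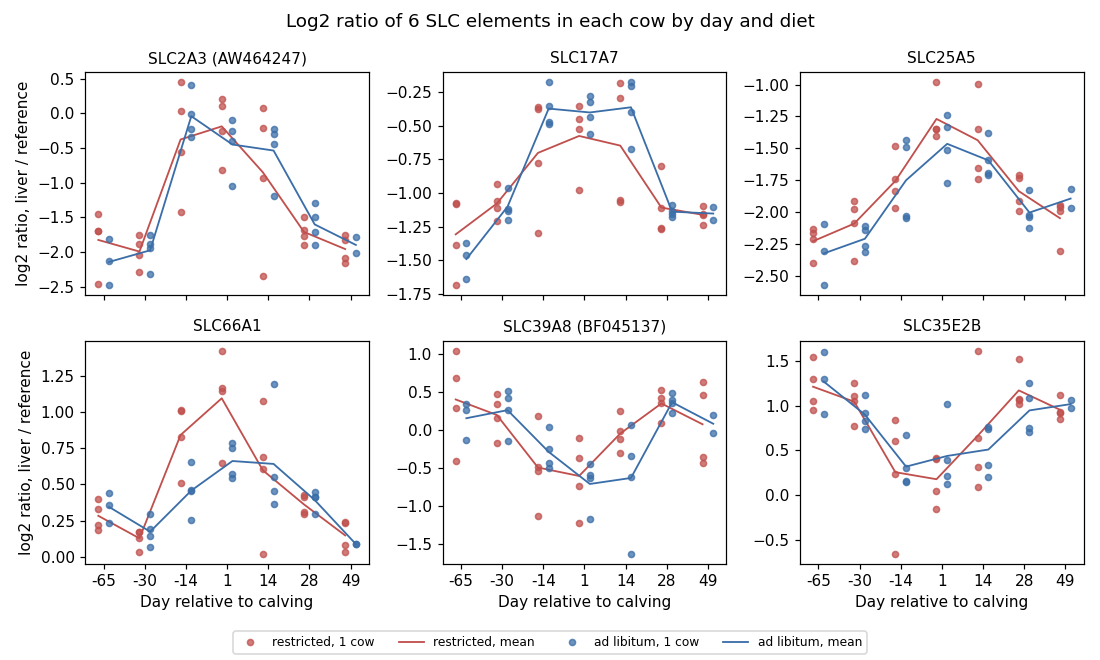
Log2 ratio of liver over reference in each cow (points) and the mean of each diet (lines) on the 7 sampling days, for 6 solute carrier elements, restricted cows in red and ad libitum cows in blue. SLC2A3 (AW464247), SLC17A7, SLC25A5 and SLC66A1 had higher means on days -14, 1 and 14 than on day -30, and SLC39A8 (BF045137) and SLC35E2B had lower ones.

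From day -14 to day 1, the interval that holds calving, no solute carrier passed, and 0.397% of all elements did. At an unadjusted limma p under 0.05 there were 8 of 83 solute carriers and 795 of all 8061 elements. The smallest adjusted p among solute carriers was 0.11, and the number of calls was also 0 under each of the other settings tried. Differences ran from -0.46 to 0.46.

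Between day 14 and day 28 of lactation 5 solute carrier elements rose and 6 fell, 11 elements of 10 genes. The background was 8.62% of all elements, 3.71% higher and 4.91% lower, and the share among solute carriers was 13.3%. The days overlapped for all 83, and 0.782% of all elements had days without overlap. Without centring, the median of all elements shifted by -0.44, and 0 rose and 28 fell. With the arrays scaled to one spread 14 rose and 9 fell. With liver in Cy3 alone 10 rose and 16 fell, with liver in Cy5 alone 0 rose and 2 fell, and with orientation agreement as a covariate 1 rose and 4 fell. The number of calls was 5 without cow 6886, 6 without cow 7045, 7 without cow 7050 and 5 without cow 7161.

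All 11 calls concerned 5 classes and the neurotransmitter carrier. The glucose carriers now fell. SLC2A1 (AW463536) lay between -1.08 and -0.15 (median -0.65) on day 14 and between -1.61 and -0.96 (median -1.31) on day 28, and all 8 cows were lower. The difference of -0.73 ± 0.13 (SE) had an adjusted p of 0.000118. Its other element differed by -0.19 and did not pass. SLC2A3 fell in 7 of 8 cows on AW464247, from a median of -0.37 (range -2.34 to 0.08) to -1.70 (range -1.90 to -1.30), a difference of -0.96 ± 0.23 (SE, adjusted p = 0.0052), and it fell by 0.46, in all 8 cows, on AW463170 (adjusted p = 0.0219). On AW464247 a single cow was already at -2.34 on day 14, below every cow of day 28. The second of these SLC2A3 calls was lost without cow 6877, 6886, 7050, 7105 or 7161.

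SLC17A7 fell in all 8 cows, from a median of -0.35 (range -1.07 to -0.18) to -1.14 (range -1.27 to -0.80), a difference of -0.62 ± 0.12 (SE) with an adjusted p of 0.000522. SLC25A5 fell by 0.40, in 7 of 8 cows (adjusted p = 0.0121), a call lost without cow 6877, 7105 or 7161, and SLC4A3, the anion exchanger known from heart and brain, fell by 0.48, in 7 of 8 cows, on element AW465600 (adjusted p = 0.0306). The latter call was lost without any of cows 6877, 6886, 6952, 7045, 7161 and 7187.

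The 5 rises were in zinc, organelle and ion carriers. SLC39A8 (BF045137) rose in all 8 cows, from a median of -0.21 (range -1.63 to 0.25) to 0.38 (range 0.09 to 0.53), a difference of 0.70 ± 0.20 (SE, adjusted p = 0.0205), while AW465746 was lower in all 8 cows, a difference of -0.57 that did not pass (adjusted p = 0.108). SLC30A1, which exports zinc across the plasma membrane, rose in 7 of 8 cows, from a median of 1.00 (range 0.31 to 1.54) to 1.68 (range 0.65 to 2.05), a difference of 0.67 ± 0.20 (SE, adjusted p = 0.0242). SLC25A17 rose in 7 of 8 cows by 0.49 ± 0.11 (SE, adjusted p = 0.00375). SLC29A3 (BF043384) rose in all 8 cows by 0.57 ± 0.18 (SE, adjusted p = 0.0429), and SLC4A11 rose in 7 of 8 cows by 0.28 ± 0.09 (SE, adjusted p = 0.0435) but differed by -0.19 without centring. The calls of SLC39A8 and SLC30A1 were each lost without cow 6886, 7045, 7050 or 7161. SLC29A3 lost its call without any of cows 6886, 7045, 7050, 7105, 7161 and 7187, and SLC4A11 without any of cows 6877, 6886, 7045, 7105, 7161 and 7187.

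Of the 28 elements that changed between days -30 and -14 and the 11 that changed between days 14 and 28, 9 were shared, which is 32.1% of the first list and 81.8% of the second, and all 9 had opposite signs in the intervals. They were both elements of SLC2A3, SLC2A1 (AW463536), SLC17A7, SLC25A5, SLC25A17, SLC29A3 (BF043384), SLC39A8 (BF045137) and SLC4A11. Over all elements 531 were shared, 19.6% and 76.4% of the lists, and 530 of them had opposite signs, so calls with opposite signs in these intervals were common across the array. Marker levels also returned: the mean of the 2 hepatocyte elements lay between 2.15 and 3.12 on day 14 and between 2.93 and 3.50 on day 28, 5 of 8 endothelial elements and 2 of 9 macrophage elements rose, and 3 of 7 stellate cell elements fell. The part of these in the solute carrier results was not tested.

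Day 28 set against day -30, both days with dye orientations in close agreement, gave no solute carrier call, and 0.347% of all elements passed. There were 12 of 83 solute carriers at an unadjusted limma p under 0.05, and 1273 of all 8061 elements. The smallest adjusted p among solute carriers was 0.0719. The number of calls was 1 without centring, 3 with scaled arrays and 1 without cow 6952, and 0 under the other settings. Single differences ran from -0.48 to 0.53.

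For 16 of the 64 genes, several elements allowed a check of a result on a different cDNA, and the other genes had no such check. Between days -30 and -14, the elements of 9 of the 16 genes shared a sign, and 7 genes had at least 1 element that passed. In that interval 3 genes had every element pass: SLC2A1, SLC2A3 and, in opposite directions, SLC39A8. Between days 14 and 28, 10 genes shared a sign, 5 had an element that passed and 1 had every element pass. Between diets after calving these counts were 6, 3 and 0. Over the 53 cow-days the closest pairs were SLC39A7 (r = 0.97) and SLC29A1 (r = 0.89), whereas SLC29A3 (r = -0.08) and SLC36A2 (r = 0.04) had elements with little in common. A change on 1 element of SLC29A3, SLC36A2, SLC15A4 or SLC7A4 was thus not matched by a passing change on the other.

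**Figure D3:**
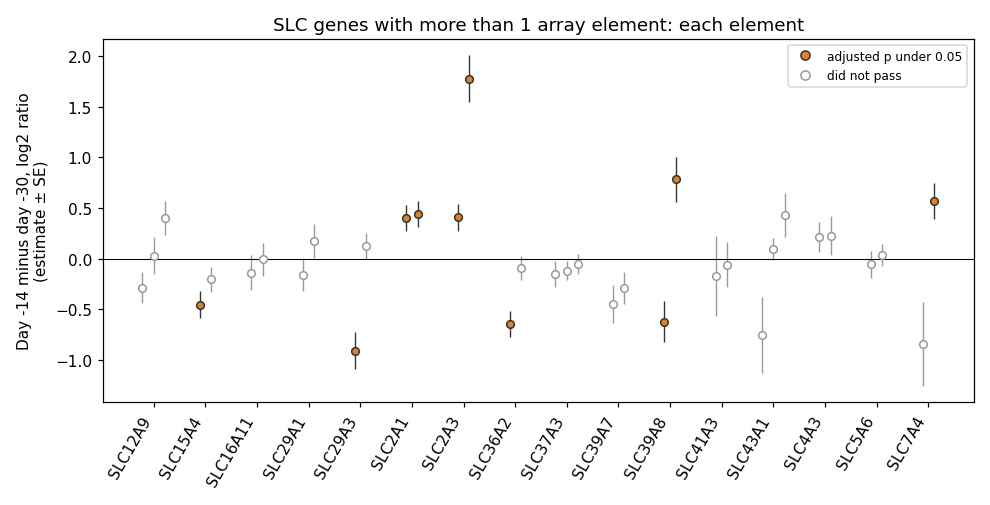
Difference between day -14 and day -30 (log2 ratio, estimate ± SE, 8 cows per day) for every element of the 16 solute carrier genes with more than 1 element. Filled points passed an adjusted p of 0.05. Both elements passed for SLC2A1 and SLC2A3, in the same direction, and for SLC39A8, in opposite directions.

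Diets were compared with 1 value per cow, 4 cows against 4. With days -30 and -14 averaged, none of 82 solute carriers passed before calving, and 0% of all elements did. The lysosomal carrier SLC46A3 had too few values to be compared. At an unadjusted limma p under 0.05 there were 13 solute carriers and 1050 of all 8052 elements. The smallest adjusted p among solute carriers was 0.286, and the number of calls was 0 under each setting tried. Values that lay apart between diets without passing included SLC43A1 (AW465189), a neutral amino acid carrier, with restricted cows at 1.98, 2.09, 2.38 and 2.54 and ad libitum cows at 1.41, 1.63, 1.84 and 1.90 (difference -0.55 ± 0.16 SE, adjusted p = 0.294). SLC29A1 (BM366141) was at 2.83, 3.01, 3.02 and 3.08 in restricted cows and at 2.35, 2.49, 2.62 and 2.80 in ad libitum cows (difference -0.42 ± 0.13 SE, adjusted p = 0.294). Neither pair of groups overlapped, which held for 8 of the 82 solute carriers compared and for 8.56% of all elements. The second element of SLC29A1, BF043560, lay on the same side (difference -0.59 ± 0.15 SE, adjusted p = 0.286), whereas those of SLC43A1 gave 0.52 (AW462271) and -0.05 (BF044871) and did not pass. In the other direction, SLC30A1 averaged 1.10 ± 0.07 in ad libitum and 0.82 ± 0.18 in restricted cows (SD, n = 4 each). SLC30A5, also of the metal ion class, averaged -0.34 ± 0.09 and -0.67 ± 0.23. For both the diets overlapped narrowly and neither passed. Of the 15 metal ion elements, 5 had an unadjusted limma p under 0.05, against 13 of all 82 solute carriers and 1050 of all 8052 elements. The median difference of the class was 0.15, and none of its elements passed.

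After calving, on the mean of days 1, 14 and 28, 8 of 82 solute carriers differed, and all 8 were higher in cows that had eaten ad libitum. The background was 10.5% of all elements, 9.83% higher and 0.684% lower in ad libitum cows, and the share among solute carriers was 9.76%. The median difference over all members was -0.07, and -0.06 over all elements. The diets did not overlap for any of the 8, nor for 4 others of the 82 that did not pass, and 16.4% of all elements had diets without overlap. The number of calls was 5 without cow 7045, 7105 or 7161 and 3 without centring or with liver in Cy3 alone.

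SLC37A2, a sugar phosphate exchanger of the endoplasmic reticulum, was at 0.04, 0.04, 0.06 and 0.29 in the ad libitum cows and at -0.94, -0.79, -0.75 and -0.69 in the restricted cows. The difference of 0.90 ± 0.11 (SE) had an adjusted p of 0.000937. SLC31A2, which takes part in intracellular copper handling, was at -0.03, 0.02, 0.06 and 0.26 against -0.89, -0.70, -0.70 and -0.55. The difference was 0.79 ± 0.11 (SE, adjusted p = 0.000981). SLC4A9 was at -0.05, -0.01, 0.08 and 0.31 against -0.80, -0.67, -0.60 and -0.51, a difference of 0.73 ± 0.11 (SE, adjusted p = 0.00155). In these 3 every restricted cow was below every ad libitum cow by a wide margin.

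SLC39A7, which releases zinc from the endoplasmic reticulum, was at -0.04, 0.11, 0.13 and 0.34 in ad libitum cows and -0.73, -0.57, -0.41 and -0.12 in restricted cows on element BF041712, a difference of 0.59 ± 0.14 (SE, adjusted p = 0.0194). Its other element differed by 0.39 and did not pass (adjusted p = 0.114). SLC29A3 (BF043384) was at 0.06, 0.21, 0.23 and 0.36 against -0.52, -0.39, -0.25 and -0.10, a difference of 0.53 ± 0.12 (SE, adjusted p = 0.0127), while its element BM361857 differed by -0.31 and did not pass (adjusted p = 0.154). SLC19A2, the thiamine transporter, was at 0.16, 0.18, 0.29 and 0.33 against -0.40, -0.20, -0.19 and -0.17, a difference of 0.48 ± 0.10 (SE, adjusted p = 0.00839).

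The last pair differed by less. SLC12A9, an orphan of the cation-chloride cotransporter family, was at -0.10, 0.07, 0.26 and 0.31 in ad libitum cows and at -0.37, -0.35, -0.24 and -0.19 in restricted cows on element AW461435, a difference of 0.42 ± 0.12 (SE, adjusted p = 0.0389). Its other elements differed by -0.31 and -0.03 and did not pass. SLC4A11 was at -0.24, -0.14, -0.08 and 0.02 against -0.57, -0.45, -0.45 and -0.42, a difference of 0.36 ± 0.10 (SE, adjusted p = 0.0357). The call of SLC12A9 was lost without any of cows 6886, 6952, 7045, 7105, 7161 and 7187, that of SLC4A11 without any of cows 6886, 6952, 7045, 7050, 7105 and 7161, and that of SLC39A7 without cow 7045, 7105 or 7161. On the other side, SLC16A13, a monocarboxylate carrier family member, was at 1.22, 1.51, 1.66 and 1.89 in ad libitum cows and at 1.84, 1.86, 2.33 and 2.58 in restricted cows, and its difference of -0.58 ± 0.19 (SE) did not pass (adjusted p = 0.0921).

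**Figure D4:**
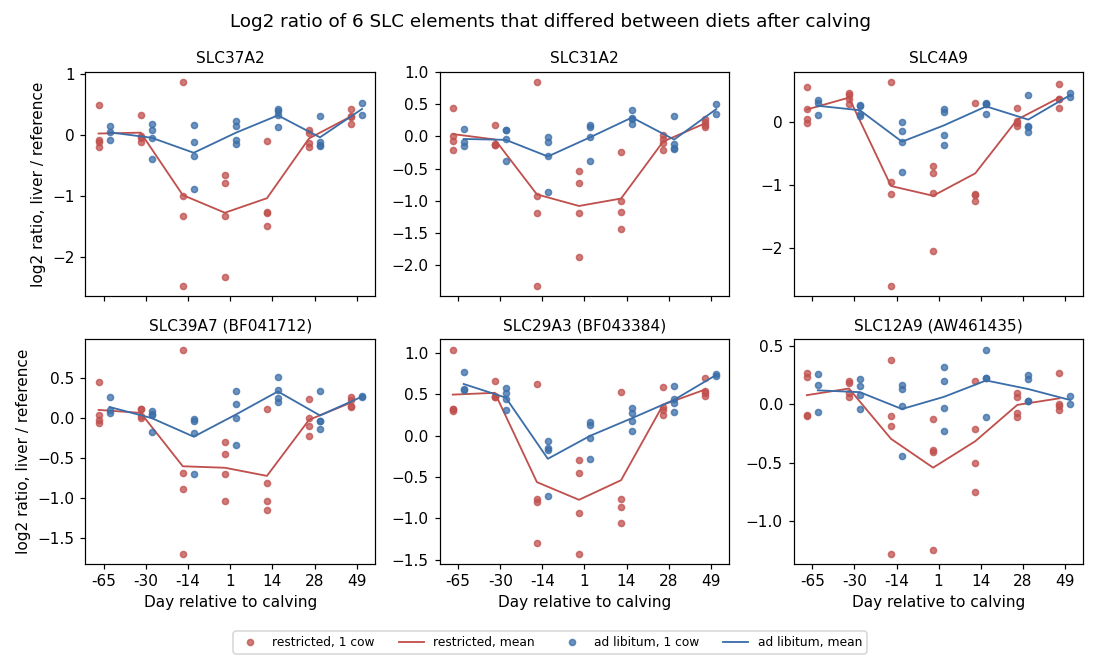
Log2 ratio of liver over reference in each cow (points) and the mean of each diet (lines) on the 7 sampling days, for 6 of the 8 solute carrier elements that differed between diets after calving, restricted cows in red and ad libitum cows in blue. The means of the diets lie farther apart on days 1 and 14 than on days -65, -30, 28 and 49 in each panel. On day -14, before calving, the mean of the restricted cows was already the lower in each panel, by less than on days 1 and 14.

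Of the 8 elements that differed between diets, 5 followed a close course: SLC37A2, SLC31A2, SLC4A9, SLC39A7 (BF041712) and SLC29A3 (BF043384). The pairwise correlations of these 5 over the 53 cow-days, which share arrays and centring, ran from 0.88 to 0.99, and SLC37A2 and SLC31A2 correlated at 0.99 although they belong to unrelated families. The pairs that involve SLC12A9 (AW461435), SLC4A11 or SLC19A2 ran from 0.67 to 0.86, and no element of the array correlated above 0.9 with any of these 3. All 8 had been picked by the same difference between diets. Among 7577 elements with a value in every cow-day, 562 correlated above 0.9 with SLC37A2, and they stood for 397 named genes and 161 elements without a symbol. For 73.8% of those elements, and for 65 of the 76 solute carriers among them, no element of the array correlated that closely. SLC37A2, SLC31A2, SLC4A9, SLC39A7 (both elements) and SLC29A3 (BF043384) each had more than 50 such companions.

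Of the 790 elements that were higher in ad libitum cows after calving, 558 belonged to those 562 companions of SLC37A2, or 70.6% of the calls and 99.3% of the companions. SLC37A2 was itself among the calls, and its companions were picked on the same values, so the 99.3% follows largely from that choice. The companions held 29.6% of the elements that fell between days -30 and -14. On day 14, SLC37A2 was at -0.10 in restricted cow 6952 and between -1.50 and -1.27 in the 3 other restricted cows. The agreement of both dye orientations over days 1, 14 and 28 averaged 0.742 ± 0.043 in ad libitum cows and 0.819 ± 0.057 in restricted cows (SD, n = 4 each), and the groups overlapped. Marker lists differed too: 2 of 8 endothelial elements were lower in ad libitum cows, 1 of 9 macrophage elements was higher and 1 lower, 1 of 3 T and NK cell elements was lower and 1 of 2 bile duct elements higher, with no call among 2 hepatocyte or 7 stellate cell elements. The part of the shared course, of agreement and of cell makeup in the diet results was not tested.

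No solute carrier passed a test of whether diet altered its course over time. The diet by day interaction over all 7 days called 0 of 83 solute carriers and 0.794% of all elements. At an unadjusted limma p under 0.05 there were 14 solute carriers and 1467 of all 8061 elements. The smallest adjusted p among solute carriers was 0.0769. The number of calls was 7 without cow 6877, 8 without cow 6952 and 0 under the other settings. The change from before to after calving differed between diets for 0 of 80 solute carriers and 0% of all elements. SLC46A3, SLC43A1 (AW462271) and SLC7A4 (BF041636) had too few values. At an unadjusted limma p under 0.05 there were 11 solute carriers and 711 of all 7987 elements. The smallest adjusted p among solute carriers was 0.503, with 0 calls under each setting tried. For SLC37A2 the change across calving was 0.59 ± 0.29 (SE) higher in ad libitum than in restricted cows and did not pass, so the diet difference after calving was not shown to exceed the one before it.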

How the data were processed

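The labels name a Scanarray scanner and GenePix image analysis, and the authors deposited a log2 ratio of Cy5 over Cy3 per spot. The sources used here give no background correction, normalization, genome build or spot intensity. For 4 arrays the source text gave Cy5 to both channels. The title and the label field, which matched, were followed there. With them both orientations of those cow-days correlated at 0.43 to 0.90, after the dye effect of each element was taken out. Each ratio was turned to liver over reference by the dye in the title, each array was centred on its median (deposited medians lay between -1.69 and 1.80), and the 2 spots of an element and both dye orientations were averaged. Elements with at least 2 cows in each of 14 groups were tested (8061 of 8208, of which 83 solute carriers). Each element that passed a comparison of days had a value in all 8 cows on both days. Days were compared over 14 groups in 1 fit, with a random block for the cow (within-cow correlation 0.0176, since the same animals were sampled on each day), and diets on 1 mean per cow. Both used limma (version 3.58.1, statmod version 1.5.0, R version 4.3.3), two-sided, with Benjamini-Hochberg adjustment over all tested elements and a threshold of 0.05. The fit was tested on simulated data with noise independent between elements and cow-days. That simulation could not test the fit where many elements share a course or where cows differ. Precision is limited by the number of cows.

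Gene symbols came from the platform annotation: 5598 elements had 1 symbol, 95 several and 2515 none, and 5591 of the 5598 were found in a RefSeq gene table (assembly ARS-UCD2.0). An element with several symbols, 1 of them a solute carrier, was left out. Named elements were drawn from up to 4 per class by the smallest p over days, up to 6 per direction in each comparison of days, up to 4 per direction in each comparison of diets, and other elements of those genes. Not every element so chosen is printed. For the change across calving SLC37A2 was given outside this rule, after its difference following calving was seen. SLC39A9, SLC35B2, SLC9A2, SLC1A3 and SLC40A1 were named outside this rule after their values were seen, as was the correlation of 0.9 used to count elements with a like course. The members, substrate classes and marker lists were chosen with earlier results of these data known. Alternatives were arrays not centred, arrays scaled to one spread, each orientation alone, complete elements only, no block, 4 cow-days with an orientation correlation under 0.6 left out, that correlation as a covariate, and each cow left out in turn.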

Additional observations from a re-analysis of the deposited data

Results flagged for a closer look

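The 15 solute carrier elements followed cow by cow gave 180 groups of 4 cows on the same day and diet. In these, 15 single values lay far from those of the 3 other cows by Dixon's criterion. Chance alone exceeds it in about 1 in 20 groups. Some cows were flagged more than once. The elements shared cow-days, and 5 of them correlated with each other at 0.88 to 0.99, so the flags were not independent. No cause was tested. On day 28 the ad libitum cow 7161 was above the others in 4 elements: SLC31A2 at 0.32 (others -0.20 to -0.12), SLC37A2 at 0.32 (others -0.18 to -0.12), SLC4A9 at 0.44 (others -0.15 to -0.05) and SLC4A11 at 0.12 (others -0.10 to -0.09). On day 14 the restricted cow 6952 was above its group in SLC37A2 at -0.10 (others -1.50 to -1.27) and in SLC4A9 at 0.31 (others -1.26 to -1.15), so the low values of restricted cows on that day came from the 3 others. The same cow stood apart in SLC29A3 (BF043384) on day -65 at 1.04 (others 0.30 to 0.32), in SLC31A2 on day -30 at 0.18 (others -0.13 to -0.11), in SLC25A5 on day 1 at -0.98 (others -1.40 to -1.35) and in SLC12A9 (AW461435) on day 49 at 0.27 (others -0.05 to -0.00025).

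Single values elsewhere were the restricted cow 7105 in SLC29A3 (BF043384) on day -30 at 0.66 (others 0.46 to 0.48) and in SLC35E2B on day 28 at 1.52 (others 1.02 to 1.07), the restricted cow 6877 in SLC25A5 on day 49 at -2.30 (others -1.99 to -1.94), and the ad libitum cow 7187 in SLC29A3 (BF043384) on day -14 at -0.73 (others -0.18 to -0.06) and in SLC4A9 on day 14 at 0.13 (others 0.29 to 0.31).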

How the results depend on the processing

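The number of solute carriers that changed over the 7 days was 38, and 22 with orientation agreement as a covariate. Between days 14 and 28 it was 11, and 28 without centring, 23 with scaled arrays, 26 with liver in Cy3 alone, 2 with liver in Cy5 alone and 5 with the covariate. Between days -30 and 28 it was 0, and 1 without centring and 3 with scaled arrays. Between diets after calving it was 8, and 3 without centring or with liver in Cy3 alone. Leaving out each cow in turn gave 24 to 37 over the 7 days (24 without cow 7161), 5 to 16 between days 14 and 28, 0 to 1 between days -30 and 28, 0 to 8 for the interaction, 19 to 32 between days -30 and -14 and 5 to 10 between diets after calving; without cow 7161 or 7187 a single ad libitum cow remained on day 49, assumed to vary like the other groups. The fit with no replicate block gave the same counts of 38, 28, 0, 11, 0 and 0, so the pairing by cow changed no count. Leaving out 4 cow-days of low agreement gave 30 over the 7 days, 26 and 8 in the intervals before and after calving, and 6 between diets after calving, of which 1 was lower in ad libitum cows. Of 47 called values of named elements, 6 changed sign without centring, 2 with liver in Cy3 alone, 1 with liver in Cy5 alone and 1 with scaled arrays. Between days -30 and -14 these were, without centring, SLC26A2 (0.055), SLC25A17 (0.034), SLC35A3 (0.019), SLC35B2 (0.067) and SLC1A3 (0.031), with liver in Cy3 alone SLC35B2 (0.039) and SLC9A2 (0.059), with liver in Cy5 alone SLC2A1 (AW463536, -0.12), and with scaled arrays SLC1A3 (0.15). Between days 14 and 28 SLC4A11 was at -0.19 without centring. A sign change without centring follows the shift of all elements, and the cause of the other changes was not tested. Sign and call were both kept by 21 of the 47 without centring, 21 with liver in Cy5 alone, 35 with liver in Cy3 alone and 38 with scaled arrays. All 47 kept sign and call with complete elements only. The other comparisons gave 0 members under every setting.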

Other observations

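Transporters whose symbol did not start with SLC and a digit were measured in the same fits. Between days -30 and -14 the sodium, calcium and proton pumps and flippases (21 elements of 17 genes) gave 7 rises and 3 falls, with differences from -0.97 to 0.75. Of 11 ABC transporter elements 1 rose and 2 fell, and of 5 aquaporin elements 0 rose and 3 fell. The background was 33.5% of all tested elements, 19.5% higher and 14% lower. SLCO2B1, an organic anion uptake carrier, fell by 0.91 between days -30 and -14 and rose by 0.86 between days 14 and 28, and both passed. MPC2, a subunit of the mitochondrial pyruvate carrier, rose by 0.49 between days -30 and -14. It was also higher on day 28 than on day -30 by 0.63, a comparison in which none of the 83 elements of this report passed. Between diets after calving 1 of 21 ion pump elements and 1 of 5 aquaporin elements were higher in ad libitum cows, and no ABC transporter passed. Of all elements 10.5% passed that comparison, 9.83% higher in ad libitum cows.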
